A study of Mus musculus with 8 samples.

Results

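The carbonic anhydrases examined here are 7 genes, Car1, Car2, Car4, Car7, Car8, Car12 and Car13, taken by gene name from a deposited table of 55487 mouse genes. All 7 had a single entry in the table. RNA came from intestinal epithelial cells of the colon of C57BL/6J mice, in 4 wild type (WT) libraries and 4 libraries labelled PIM1+/-, the notation for 1 altered copy of the kinase gene Pim1. What was changed in the allele and how old the mice were is not stated by the labels. Nor do they tie each library to an animal of its own, and p-values therefore rest on the spread among these 8 libraries, which may be technical. Levels are in TPM, the share of a library's transcripts that belongs to a gene after correction for gene length, so that levels of different genes can be compared within a library.

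Carbonic anhydrases convert carbon dioxide and water to bicarbonate and a proton, and back again, at a zinc ion in the active site. In the colon the reaction feeds the exchangers that take up sodium and chloride from the lumen in return for protons and bicarbonate. The family members differ in where they act: some are in the cytosol, some are fixed to the outer face of the plasma membrane, and a few have lost the catalytic activity.

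Transcript abundances summed to between 990958 and 992187 TPM over the listed genes of a library, a scale from which the number of reads behind a value cannot be read. The transcript of Pim1 did not separate the genotypes, with 5.72 to 8.83 TPM in WT and 5.64 to 7.97 TPM in PIM1+/- libraries (log2 fold change -0.19 ± 0.15 SE, limma adjusted p = 0.411), so libraries are named by their labels. All 8 epithelial markers examined, among them Epcam and Krt8, were high in every library, with a summed level of 13678 to 14524 TPM in WT and 15138 to 15920 TPM in PIM1+/-. The 12 smooth muscle and fibroblast markers together came to at most 2.54 TPM in any library. Mitochondrially encoded transcripts held 16.1% to 18.4% of the TPM in WT and 12.5% to 13.7% in PIM1+/- libraries.

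In PIM1+/- colon epithelium the transcripts of Car1, Car12 and Car13 rose, by 0.69 to 1.10 on the log2 scale, and those of Car2 and Car4 fell. Car1, the most abundant of them, went from a mean of 7135 to 12859 TPM. Car8 did not pass the test, and Car7 was too low to be tested. Genotypes were compared with limma on log2(TPM + 1) over the 12760 genes that reached 1 TPM in 4 or more of the 8 libraries. Log2 fold changes below are PIM1+/- over WT on that scale, with their standard errors, and a gene is said to have risen or fallen when its Benjamini-Hochberg adjusted p was under 0.05. Means are given ± SD over n = 4 libraries. Of the 6 tested carbonic anhydrases 3 rose and 2 fell. Over all tested genes 8.93% rose and 8.54% fell, which is 17.5% called in either direction. These were 1139 higher and 1090 lower calls (51.1% higher). Upper quartile scaling gave 925 and 1521 (37.8% higher), and scaling without mitochondrially encoded genes 857 and 1565 (35.4% higher). Under both the 5 member calls kept their directions. The WT and PIM1+/- libraries did not overlap for any of the 6 tested carbonic anhydrases, higher for 4 and lower for 2, against 23.5% of all tested genes. In bulk RNA such as this, fewer cells of a type and less RNA per cell cannot be told apart. The members were chosen with results of these data known, so these counts describe the family and do not set it apart from other genes.

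**Figure D1:**
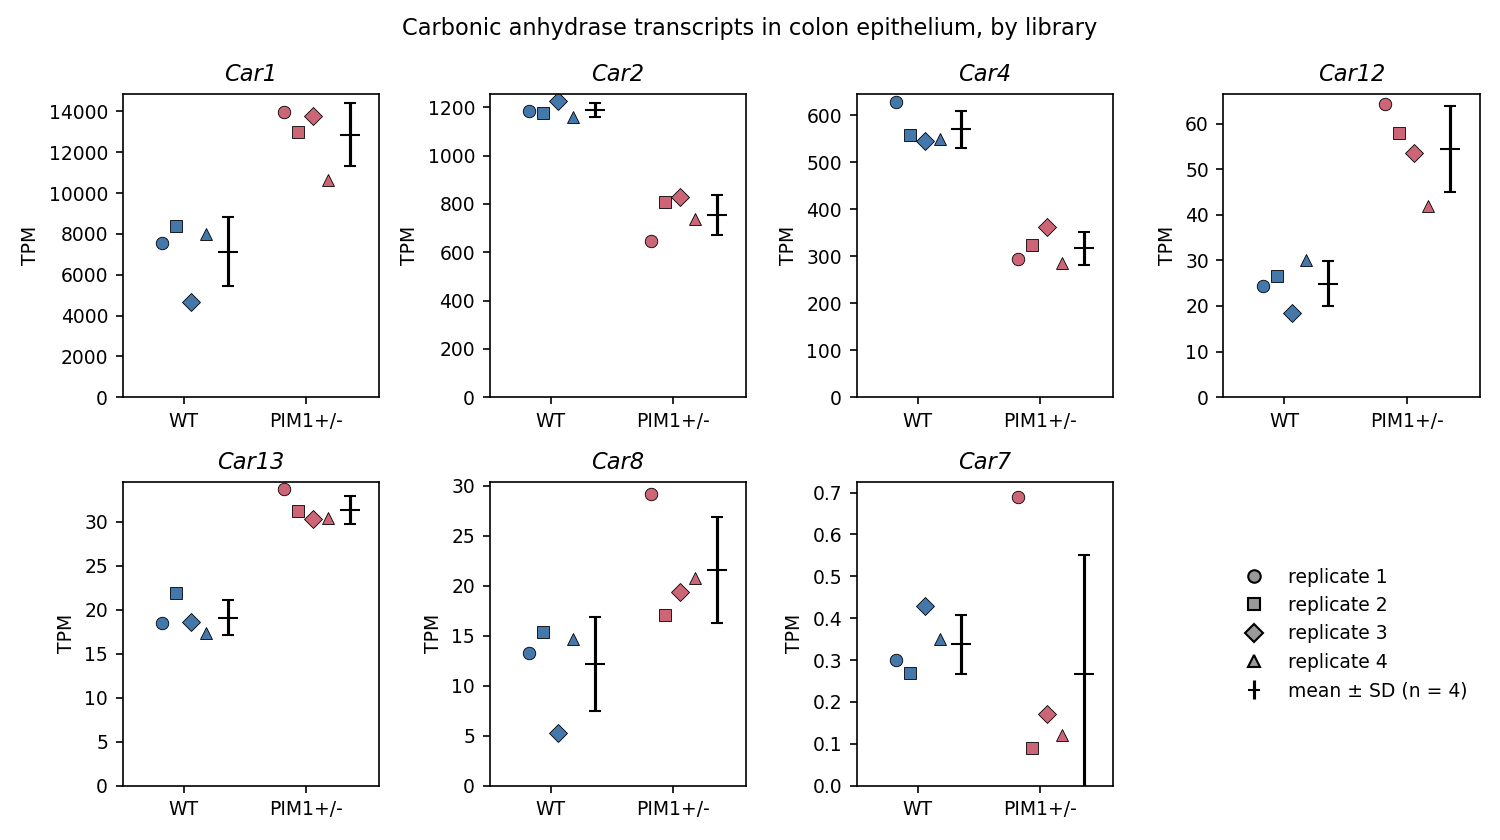
TPM of the 7 carbonic anhydrase genes in each library (vertical axes, linear and starting at 0, with a scale of their own in each panel), with WT in blue, PIM1+/- in red, a marker shape for each replicate number, and the mean ± SD (n = 4) beside the points. The genotypes are separated in every panel but that of Car7, where PIM1+/- replicate 1 reached 0.69 TPM and the SD bar of PIM1+/- runs below the axis; WT replicate 3 is the lowest WT library for Car1, Car4, Car12 and Car8.

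The cytosolic enzymes come first. Car1 (ENSMUSG00000027556, chromosome 3, 14766216 to 14808368, minus strand, GRCm38) encodes an abundant cytosolic enzyme of colon epithelium and of red blood cells. In WT, replicates 1 to 4 had 7542, 8365, 4639 and 7996 TPM, and in PIM1+/- they had 13988, 12993, 13796 and 10658 TPM. Every PIM1+/- library was above every WT library, WT replicate 3 was well below the other WT libraries, and PIM1+/- replicate 4 was the lowest of its genotype. The mean went from 7135 ± 1698 to 12859 ± 1529 TPM, a ratio of means of 1.80. On the log2 scale it rose by 0.88 ± 0.18 (95% interval 0.47 to 1.28, adjusted p = 0.0112 by limma). The call was lost without a filter on low values, which raised the number of genes tested (adjusted p = 0.0612), and without WT replicate 3 the log2 fold change was 0.68. Car1 alone held 0.714% ± 0.170 of the TPM scale in WT and 1.29% ± 0.153 in PIM1+/- libraries. It stood at rank 12 to 16 among all listed genes in WT libraries and at rank 6 to 9 in PIM1+/- libraries.

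Car2 (ENSMUSG00000027562, chromosome 3, 14886273 to 14900770, plus strand) encodes the fast cytosolic enzyme found in many tissues. Replicates 1 to 4 of WT were at 1187, 1178, 1228 and 1159 TPM, and those of PIM1+/- at 648, 806, 829 and 736 TPM. The WT libraries lay close together, and all 4 PIM1+/- libraries were below them. The fall, from 1188 ± 29.2 to 755 ± 81.4 TPM, was -0.66 ± 0.08 on the log2 scale (95% interval -0.83 to -0.49, adjusted p = 0.000699). WT replicate 3, the lowest WT library for Car1, was the highest for Car2.

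Car13 (ENSMUSG00000027555, chromosome 3, 14641727 to 14663002, plus strand), another cytosolic enzyme, was at 18.6, 21.9, 18.6 and 17.4 TPM in the WT replicates, in the order 1 to 4. The PIM1+/- replicates had 33.7, 31.2, 30.3 and 30.4 TPM. Its spread within a genotype was small beside the gap between the genotypes. The mean went from 19.1 ± 1.95 to 31.4 ± 1.59 TPM (log2 fold change 0.69 ± 0.08, 95% interval 0.51 to 0.87, adjusted p = 0.000693).

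Car7 (ENSMUSG00000031883, chromosome 8, 104534689 to 104550343, plus strand), a cytosolic enzyme best known from the brain, was near 0 throughout. WT replicates 1 to 4 were listed at 0.30, 0.27, 0.43 and 0.35 TPM, and PIM1+/- replicates 1 to 4 at 0.69, 0.09, 0.17 and 0.12 TPM. The genotypes overlapped, because PIM1+/- replicate 1 was the highest of the 8 libraries and the other PIM1+/- libraries the lowest. With no filter on low values limma gave -0.10 ± 0.14 on the log2 scale (95% interval -0.42 to 0.22, adjusted p = 0.713).

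Car1, Car2 and Car13 are neighbours. With Car3, a cytosolic enzyme of low activity known from muscle, they span 259 kb of chromosome 3 (14641727 to 14900770), in the order Car13, Car1, Car3, Car2. Car1 lies on the minus strand and the other 3 genes on the plus strand. Within this cluster Car13 and Car1 rose, Car2 fell, and Car3 stayed at 0.703 ± 0.280 TPM in WT and 0.713 ± 0.272 TPM in PIM1+/-, too low to test. The unprocessed pseudogene Gm5843 and the processed pseudogene Gm16399, which lie between Car13 and Car3, averaged at most 0.075 TPM in either genotype.

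The membrane-bound enzymes also moved in both directions. Car4 (ENSMUSG00000000805, chromosome 11, 84957786 to 84966044, plus strand) is held on the outer face of the plasma membrane by a lipid anchor. The WT libraries, 1 to 4, held 629, 559, 545 and 550.0 TPM of it, and the PIM1+/- libraries 294, 324, 362 and 287 TPM. All PIM1+/- libraries were lower than all WT libraries, and WT replicate 1 was above the other 3 of its genotype. The ratio of means was 0.555, and the log2 fold change of -0.85 had a 95% interval of -1.04 to -0.67 (adjusted p = 0.000269).

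Car12 (ENSMUSG00000032373, chromosome 9, 66713686 to 66766845, plus strand) crosses the membrane once and carries its active site outside the cell. Its 4 WT values, replicates 1 to 4, were 24.3, 26.7, 18.4 and 30.1 TPM, and its PIM1+/- values were 64.3, 58.0, 53.5 and 41.9 TPM. The genotypes did not overlap, with WT replicate 3 lowest in WT and PIM1+/- replicate 4 lowest in PIM1+/-, the same libraries as for Car1. From 24.9 ± 4.93 to 54.4 ± 9.45 TPM, the ratio of means was 2.19 and the log2 fold change 1.10 ± 0.16 (95% interval 0.74 to 1.47, adjusted p = 0.0027). It was the largest log2 fold change among the 6 tested members.

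For 3 of the 7 members (Car4, Car7 and Car12) a start site sequence was found in RefSeq's table for GRCm38.p6. The 250 bases before the start site are shown for the 2 of these genes that changed, one lower and one higher. Car4 is at chr11:84957504-84957753 and Car12 at chr9:66713436-66713685, both on the plus strand and read 5′ to 3′, with capitals marking the only match to the 7 motifs searched.
Car4: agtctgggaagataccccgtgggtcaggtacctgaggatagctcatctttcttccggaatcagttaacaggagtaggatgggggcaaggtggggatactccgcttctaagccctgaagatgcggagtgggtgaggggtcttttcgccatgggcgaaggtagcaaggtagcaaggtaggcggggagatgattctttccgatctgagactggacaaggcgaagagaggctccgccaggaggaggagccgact
Car12: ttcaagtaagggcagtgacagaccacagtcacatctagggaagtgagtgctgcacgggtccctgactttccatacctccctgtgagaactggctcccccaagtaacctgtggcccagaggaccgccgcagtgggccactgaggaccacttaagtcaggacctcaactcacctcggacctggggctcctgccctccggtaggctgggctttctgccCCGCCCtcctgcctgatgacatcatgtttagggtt
On both strands 7 motifs were searched. These were TATAAA (the TATA box), ACGTG (the core bound by hypoxia-inducible factors), GAAANNGAA (from the interferon-stimulated response element), TTCNNNGAA (the STAT site), TTTAT (the CDX core), AGGTCA (the element of nuclear receptor sites) and GGGCGG (the GC box). The letters of TTTAT on the opposite strand are part of TATAAA, so these matches can overlap. The Car12 window held 1 GC box, 35 bases before the start site on the minus strand, and the Car4 window held no match. Among 32851 windows of the same length, 32.7% held a GC box, 12.4% TATAAA, 16.6% ACGTG, 7.13% GAAANNGAA, 7.02% TTCNNNGAA, 37.3% TTTAT and 14% AGGTCA.

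Car8 (ENSMUSG00000041261, chromosome 4, 8143362 to 8239041, minus strand) encodes a related protein without catalytic activity, known to bind the inositol trisphosphate receptor. Levels in WT replicates 1 to 4 were 13.3, 15.4, 5.24 and 14.7 TPM, against 29.2, 17.1, 19.3 and 20.8 TPM in the PIM1+/- replicates. The genotypes did not overlap, but WT replicate 3 was far below and PIM1+/- replicate 1 above the rest of their genotype. The log2 fold change of 0.85 ± 0.30 (95% interval 0.18 to 1.52) did not pass (limma adjusted p = 0.0821). Without WT replicate 3 it was 0.52 (adjusted p = 0.0735). An exact permutation test of the mean TPM alone gave p = 0.0286, two-sided and before any adjustment, which is the smallest that 4 against 4 libraries allow and was also reached by the other 5 tested members.

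**Figure D2:**
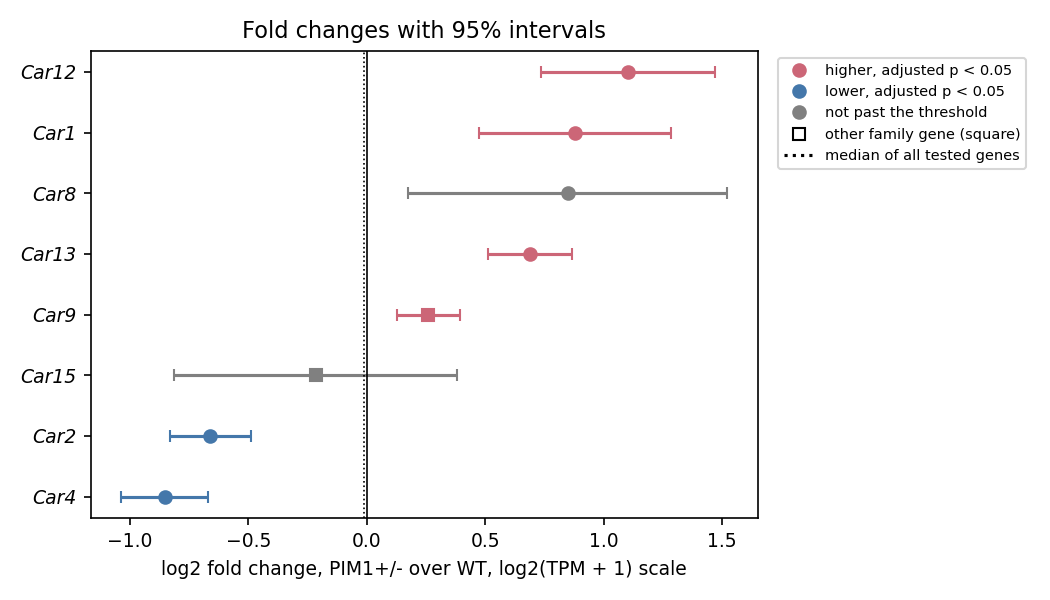
Log2 fold changes (horizontal axis, PIM1+/- over WT, log2(TPM + 1) scale) with 95% intervals for the 8 carbonic anhydrase family genes that were tested, circles for members and squares for other family genes. Car12, Car1, Car13 and Car9 lie above 0 with adjusted p under 0.05, Car2 and Car4 below 0, and Car8 and Car15 did not pass; the dotted line is the median of all tested genes at -0.01.

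Of the 9 other family genes, 2 were tested. Car9, a membrane enzyme known to be induced by low oxygen, had WT values of 37.6, 40.3, 40.1 and 36.5 TPM and PIM1+/- values of 48.1, 46.6, 43.4 and 47.7 TPM for replicates 1 to 4. It rose by a small amount (log2 fold change 0.26 ± 0.06, adjusted p = 0.0164), with no overlap between genotypes, and the call was lost without WT replicate 1 (adjusted p = 0.0519) and with a block for replicate number (adjusted p = 0.0665). Car15, anchored like Car4, was at 3.66 ± 1.57 and 2.93 ± 1.09 TPM (-0.21 ± 0.27, adjusted p = 0.622). The other 7 were not tested. Car5a, Car6 and Car10 were listed at 0 in every library, and the mitochondrial Car5b stayed at or below 0.23 TPM. Car11, a non-catalytic relative, had 0.605 ± 0.0957 TPM in WT and 0.198 ± 0.180 TPM in PIM1+/-, and the membrane enzyme Car14 0.230 ± 0.0949 and 0.0425 ± 0.0492 TPM. Both were lower in each PIM1+/- library than in any WT library, and neither passed when tested without a filter on low values (limma adjusted p = 0.0586 for Car11 and 0.0657 for Car14).

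The order of the levels per length was Car1, Car2, Car4, Car9, Car12, Car13, Car8 and Car15 in WT libraries. Neighbours in this order did not overlap, except Car12 with Car13 and Car8 with Car15, where the first was higher in 3 of 4 libraries. In PIM1+/- libraries Car12 stood before Car9, in 3 of 4 libraries and with overlapping ranges, and the order was otherwise unchanged for these 8 genes. The summed level of the 16 family genes was 8995 ± 1690 TPM in WT and 14088 ± 1561 TPM in PIM1+/-. Car1 made up 78.6% ± 4.95 of that sum in WT and 91.2% ± 1.01 in PIM1+/-. The share of Car2 was 13.7% ± 3.49 and 5.41% ± 0.812, and that of Car4 was 6.53% ± 1.34 and 2.26% ± 0.219. Without Car1, the family summed to 1859 ± 42.7 TPM in WT and 1230 ± 101 TPM in PIM1+/-.

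**Figure D3:**
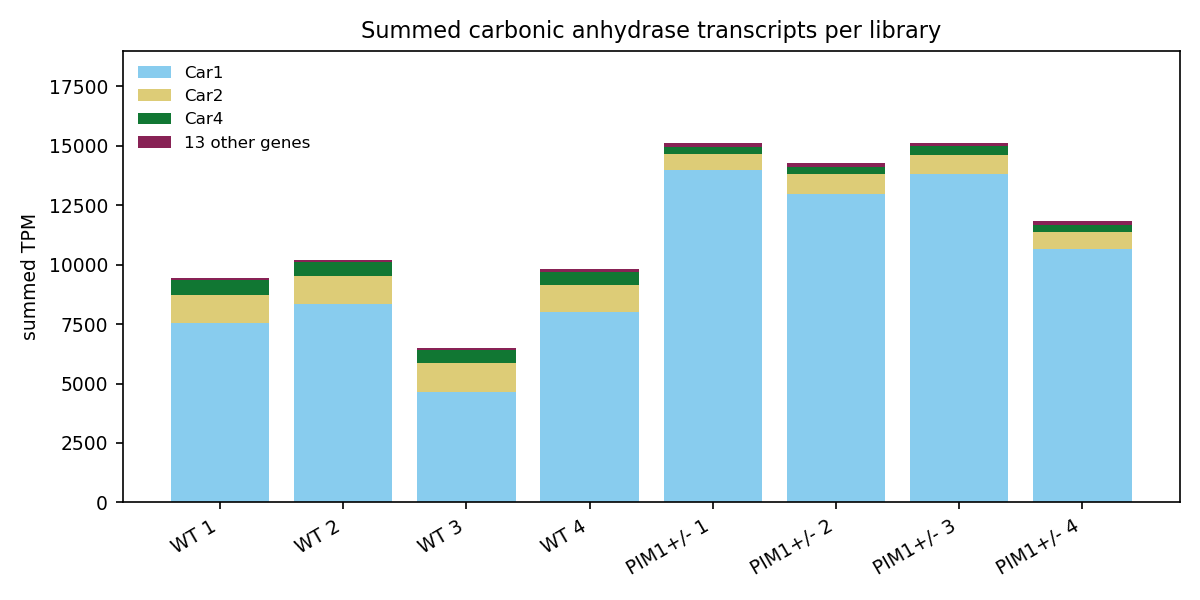
Summed TPM of the 16 carbonic anhydrase family genes (vertical axis) in each library, stacked as Car1, Car2, Car4 and the 13 other genes. The sum lay between 6502 and 10209 TPM in WT and between 11825 and 15137 TPM in PIM1+/- libraries, and the Car1 segment was the largest in all 8.

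Within a library, Car1 was 6.03 ± 1.54 times as high as Car2 in WT (3.78 to 7.10) and 17.2 ± 3.06 times as high in PIM1+/- (14.5 to 21.6). Against Car4 it was 12.5 ± 2.96 times as high in WT and 40.8 ± 4.73 times in PIM1+/-. These ratios cancel any factor that scales a whole library, and their ranges did not overlap between the genotypes. Car2 and Car4 fell together, and the ratio of Car2 to Car4 was 2.09 ± 0.152 in WT and 2.39 ± 0.170 in PIM1+/-, with overlapping ranges (1.89 to 2.26 and 2.21 to 2.57). The ratio of Car12 to Car4, a pair of membrane enzymes, was 0.0437 ± 0.00935 in WT and 0.173 ± 0.0342 in PIM1+/-.

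Genes for the transport proteins that use the bicarbonate and protons made by these enzymes, and for the guanylin peptides and the pumps that act with them, were examined as a list. Of 24 acid-base and ion transport genes 22 were tested, of which 3 rose, 2 fell and 17 did not pass, beside 8.93% that rose and 8.54% that fell over all tested genes. Their median log2 fold change was 0.09, beside -0.01 over all tested genes. The sodium-bicarbonate cotransporter gene Slc4a7 went from 33.2 ± 1.78 to 41.7 ± 3.79 TPM (0.32 ± 0.08, adjusted p = 0.0204), and the apical sodium-proton exchanger gene Slc9a3 from 117 ± 11.8 to 143 ± 13.2 TPM (0.29 ± 0.09, adjusted p = 0.0475). Guca2b, which encodes the peptide uroguanylin, rose from 38.1 ± 2.70 to 47.3 ± 2.71 TPM (0.31 ± 0.07, adjusted p = 0.0163). Best2, a bicarbonate channel of colonic goblet cells, fell from 33.4 ± 2.61 to 16.6 ± 4.85 TPM (-1.02 ± 0.20, adjusted p = 0.00934). Atp1b1, which encodes the beta subunit of the sodium pump, dropped from 861 ± 16.9 to 688 ± 60.4 TPM (-0.33 ± 0.06, adjusted p = 0.00972). The luminal chloride-bicarbonate exchanger gene Slc26a3 was at 366 ± 33.0 and 307 ± 73.2 TPM (-0.28 ± 0.16, 95% interval -0.64 to 0.08, adjusted p = 0.265) and did not pass. Best2 and Atp1b1 were called under all 15 alternative fits (another filter, scaling, pseudocount or variance model, a block for replicate number, or 1 library left out), while the calls of Slc9a3, Slc4a7 and Guca2b were lost in 11, 4 and 1 of them.

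**Figure D4:**
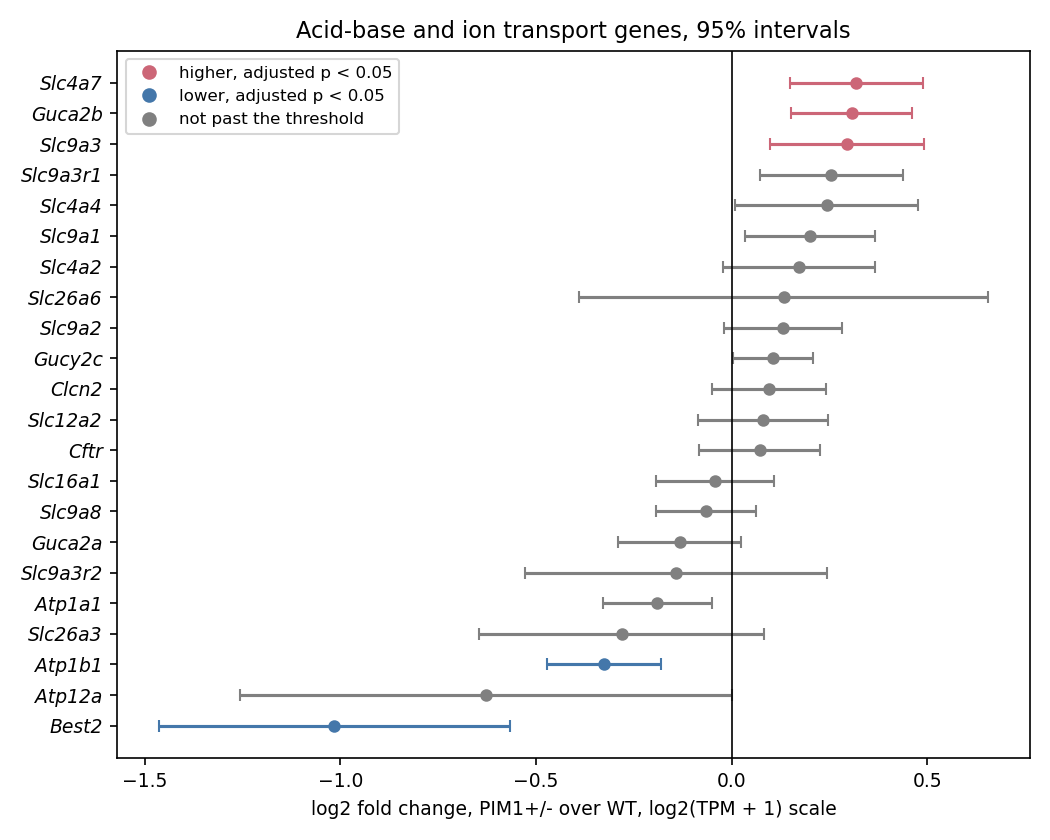
Log2 fold changes (horizontal axis, PIM1+/- over WT, log2(TPM + 1) scale) with 95% intervals for the 22 tested acid-base and ion transport genes. Slc4a7, Guca2b and Slc9a3 lie above 0 and Atp1b1 and Best2 below it with adjusted p under 0.05; the other 17 did not pass.

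Genes induced by low oxygen were examined because Car9 and Car12 are known targets of that response. Of 13 listed genes 12 were tested, 3 rose and 1 fell (median log2 fold change 0.13). Over all tested genes 8.93% rose and 8.54% fell, shares that also stand beside the counts of the lists below. The glycolysis genes Ldha (0.37 ± 0.08, adjusted p = 0.0143) and Pgk1 (0.36 ± 0.07, adjusted p = 0.0114) and the glucose transporter gene Slc2a1 (0.34 ± 0.10, adjusted p = 0.0487) rose. Bnip3, a mitophagy receptor gene, fell (-0.77 ± 0.18, adjusted p = 0.0193), and Vegfa, at 34.3 ± 3.76 and 37.4 ± 5.66 TPM, did not pass. Of 12 intestinal transcription factor genes, Cdx2 (0.62 ± 0.07, adjusted p = 0.000583) and Pparg (0.85 ± 0.11, adjusted p = 0.00165) rose and Cdx1 (-0.21 ± 0.06, adjusted p = 0.0296) and Nr3c2, the aldosterone receptor gene (-0.26 ± 0.07, adjusted p = 0.0347), fell (median -0.11). Of the 15 alternative fits, 12 lost the call of Slc2a1, 10 that of Cdx1, 10 that of Nr3c2 and 2 that of Bnip3.

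Markers of position and of other cells moved with genotype as well. Of 10 posterior Hox genes, which mark position along the gut, 6 were tested and 4 fell (median -0.75), namely Hoxb13 (-1.27 ± 0.24), Hoxd13 (-1.10 ± 0.28), Hoxa10 (-0.75 ± 0.18) and Hoxa13 (-0.74 ± 0.19). The share that fell over all tested genes was 8.54%. Hoxb13 was called in all 15 alternative fits, while 5 lost Hoxd13, 5 lost Hoxa10 and 4 lost Hoxa13. All 10 together summed to 200.4, 179, 232 and 189.6 TPM in WT, replicates 1 to 4, and to 55.3, 104, 108 and 123 TPM in PIM1+/-. The order of the WT libraries by this sum was the reverse of their order by Car1, with replicate 3 highest in the sum and lowest in Car1. In PIM1+/- libraries replicate 1 was lowest in the sum and highest in Car1, Car12, Car13 and Car8, and replicate 4 was highest in the sum and lowest in Car1 and Car12. The reversal was not complete there, because replicate 3 was above replicate 2 both in the sum and in Car1 (13796 against 12993 TPM). With 4 libraries per genotype such orders can arise readily, and they are given as a description. The other members had no common relation to the sum within the genotypes. Car2, like the sum, was highest in WT replicate 3 and lowest in PIM1+/- replicate 1, but in PIM1+/- it was highest in replicate 3. Car12 and Car8 were lowest in WT replicate 3, and Car8 was lowest in PIM1+/- replicate 2. Car4 was lowest in WT replicate 3 and in PIM1+/- replicate 4, the libraries with the highest sums. Between the genotypes, however, Car4 and the sum were both lower in PIM1+/- than in WT. Car13 was lowest in WT replicate 4 and in PIM1+/- replicate 3. The part of colon position in the carbonic anhydrase differences was not tested.

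Red blood cells carry Car1 and Car2 protein, so their markers were examined. Of 9 listed markers 3 were tested and 2 rose (Hba-a1 and Hba-a2), of which Hba-a1 lost its call in 9 of 14 alternative fits and Hba-a2 in 5 of 15. The share that rose over all tested genes was 8.93%. The band 3 gene Slc4a1 was listed at 0 in every library. The 4 globin genes summed to 5.88 to 14.6 TPM in WT and 20.9 to 27.9 TPM in PIM1+/-. The part of red blood cells in the Car1 and Car2 differences was not tested. Capillary endothelium carries Car4, and the 10 endothelial markers summed to 4.47 to 7.03 TPM in WT and 3.45 to 4.67 TPM in PIM1+/-, with Tie1 and Emcn at 0 in all libraries. Neither of the 2 tested markers passed. Vwf was at 2.37 ± 0.902 TPM in WT and 1.61 ± 0.593 TPM in PIM1+/- (adjusted p = 0.337), and Egfl7 at 1.25 ± 0.318 and 1.22 ± 0.0668 TPM. Too low to test were Pecam1 (1.54 ± 0.415 and 0.863 ± 0.137 TPM) and Esam (0.81 ± 0.332 and 0.313 ± 0.201 TPM). The part of endothelium in the Car4 difference was not tested. T, NK and myeloid cell markers summed to 11.6 to 27.5 TPM in WT and 50.4 to 107 TPM in PIM1+/-. Of 11 tested 8 rose, with the smallest p for Gzmb, Gzma, Nkg7 and Ccl5. Among the myeloid markers C1qa rose, Cd68 did not pass (limma adjusted p = 0.408), and Lyz2, C1qb, Csf1r and Itgam were too low to test. The part of these immune cells in the carbonic anhydrase differences was not tested.

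Markers of absorptive colonocytes, which carry carbonic anhydrase in colon, were uneven. Of 16 tested, 7 rose and 1 fell (median 0.30), with Tmigd1 (1.07 ± 0.12), Lypd8 (0.44 ± 0.05), Emp1 (1.24 ± 0.14) and Ceacam1 (0.65 ± 0.11) among the former and Saa1 (-0.48 ± 0.12, adjusted p = 0.0287) the latter, a call lost in 7 of 15 alternative fits. That of Lypd8 was lost without a filter on low values (adjusted p = 0.0715). Over all tested genes 8.93% rose and 8.54% fell. The summed level of the 16 absorptive markers was 14581 to 15904 TPM in WT and 18143 to 20486 TPM in PIM1+/- libraries. Of the 8 epithelial markers 5 rose and none fell. The smallest p was that of Vil1 (0.36 ± 0.06, adjusted p = 0.00418), and Epcam did not pass (0.07 ± 0.06, adjusted p = 0.474). The other 8 absorptive markers did not pass, among them Aqp8 (-0.26, adjusted p = 0.377) and Muc3 (-0.20, adjusted p = 0.157). The part of absorptive and other epithelial cells in the carbonic anhydrase differences was not tested.

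For each tested member, the genes most like it across libraries were sought among 8806 others with a mean of at least 5 TPM, by Pearson's r of log2(TPM + 1). Over all 8 libraries, where the difference between genotypes contributes, the closest were Akr1c19 (r = 0.997) and B4galnt2 (0.987) for Car1, Slc35g1 (0.997) and Tnni1 (0.995) for Car2, and Cryzl2 (0.990) and Zan (0.985) for Car4. They were Pkp3 (0.995) and Btnl4 (0.989) for Car12, Zbp1 (0.993) and Gbp6 (0.993) for Car13, and Gcnt3 (0.986) and Hoxb7 (0.979) for Car8. After each genotype's mean was subtracted, which leaves only the spread among the 8 libraries within genotypes, the closest were Slc51a (0.992) and Akr1c19 (0.990) for Car1, Slc35g1 (0.991) and Arhgap32 (0.981) for Car2, and Slc9a3r1 (0.963) and Efnb2 (0.945) for Car4. They were Prom1 (0.988) and Btnl4 (0.974) for Car12, Dynll1 (0.992) and Fkbp1a (0.969) for Car13, and Hoxb7 (0.985) and A4gnt (0.982) for Car8. Akr1c19, Slc35g1, Btnl4 and Hoxb7 were thus among the closest by both measures. With 8 libraries and 8806 genes searched, high values of r arise readily, and they are given as a description.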

How the data were processed

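RNA of colon epithelial cells (TRIzol, Illumina, per the labels' protocols) had been quantified by the authors as TPM with RSEM, per the series' design text. HISAT2, StringTie and edgeR and the build GRCm38.p6 appear in the submitters' processing notes with no version or role. No source used here gives the annotation release, strand setting or depth. The TPM of a library share a fixed sum, so no value is independent of the abundant transcripts.

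Linear models were fitted with limma 3.58.1 (R 4.3.3) on log2(TPM + 1), with genotype as the term, moderated variances that follow a mean trend, two-sided tests and Benjamini-Hochberg adjustment over 12760 genes; the script was tested on simulated data. All 8 sample columns were used (0 were left out). The members, gene lists and tests were chosen with earlier results of these data known. Named were all 16 family genes, every called transport gene, up to 4 called genes with the smallest p of each other list, the 2 most similar genes per member and measure, and Pim1. Saa1, Vegfa, Slc26a3, Epcam, Slc4a1, Tie1, Emcn, Vwf, Aqp8, Muc3 and 2 pseudogenes were named after their values were seen. So were Egfl7, Pecam1, Esam, C1qa, Cd68, Lyz2, C1qb, Csf1r, Itgam, Zg16, Muc2 and Spdef. The motifs were chosen, and one was shortened, after a first search. One red blood cell marker is not reported here. Ero1a and Ahsp were absent under those names. Coordinates are from GENCODE M21 and promoters from RefSeq. Python 3.11.15, pandas 2.3.3 and matplotlib 3.10.9 were used. The alternatives tried, given under the closing section, were limma with no trend, upper quartile scaling, scaling without mitochondrially encoded genes, testing without a filter or only above an average of 5 TPM, 0.1 as the pseudocount, blocking on replicate number, and leaving out every library once. For the tested members an exact permutation test of mean TPM was also run, with no adjustment of its p.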

Additional observations from a re-analysis of the deposited data

Results flagged for a closer look

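In 74 groups of 4 libraries (the carbonic anhydrase family and the transport genes, leaving out groups with no spread), 7 held a library far from the other 3, where chance flags about 1 group in 20. Car4 was 629 TPM in WT replicate 1, above the other WT libraries, and its fall in PIM1+/- was -0.80 on the log2 scale without that library. In PIM1+/- replicate 1, Car7 was 0.69 TPM and Car15 4.56 TPM, each the highest of its genotype. Among transport genes, Slc4a7 was high in WT replicate 3 (35.9 TPM), Slc9a3 high in WT replicate 2 (134 TPM), Slc9a8 low in PIM1+/- replicate 3 (20.3 TPM) and Guca2b low in PIM1+/- replicate 2 (43.3 TPM).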

How the results depend on the processing

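Car2, Car4, Car12 and Car13 kept their direction and their call under all 15 alternative fits. Their log2 fold changes were -0.72 to -0.59, -0.92 to -0.80, 0.97 to 1.22 and 0.64 to 0.75. The exact permutation test, which is not adjusted, gave each of them p = 0.0286, the smallest that 4 against 4 libraries allow. Car1 (0.68 to 0.97) lost its call without a filter on low values (log2 fold change 0.88, adjusted p = 0.0612), where 26705 genes were tested. Car8 passed in none of the fits, and leaving out single libraries gave 0.52 to 0.99. Its unadjusted p in the exact permutation test was also 0.0286, with a log2 ratio of means of 0.83. The calls over all genes moved from 1139 higher to 746 without WT replicate 4 (746 to 1004 over single libraries left out). They came to 760 with the replicate block, 772 without WT replicate 1 and 773 without a filter. The 1090 lower calls moved to 666 without a filter, and, with WT replicate 1, 3 or 4 left out, to 616, 690 or 689 (616 to 1054 over all 8). With the replicate block the lower calls came to 689 and the 5 member calls remained. Same-numbered libraries did not deviate together (correlations -0.136 to 0.0320), and 0 of 8 libraries matched best with its own number. Without a filter, lower calls were 0 for hypoxia-induced genes, 0 for transcription factors, 1 for posterior Hox genes, 1 for smooth muscle and fibroblast markers, 0 for colonocyte markers and 0 for goblet cell markers, and higher calls were 0 for red blood cell markers and 1 for epithelial markers. In the scaling without mitochondrially encoded genes, 4 transcription factors were lower and 3 epithelial markers higher. The cause of these shifts was not tested. More genes entered the fit without a filter, and fewer libraries when 1 was left out. The replicate block kept the same genes and libraries. Depth is unknown, so the precision of low values such as those of Car7 could not be judged.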

Other observations

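Secretory and crypt cell markers were measured beside the carbonic anhydrases. Their counts stand beside 8.93% that rose and 8.54% that fell over all tested genes. Of 8 goblet cell markers 4 rose, among them the goblet cell products Clca1 (1.65 ± 0.24, adjusted p = 0.0026) and Spink4 (1.46 ± 0.20, adjusted p = 0.00207) and the mucus protein gene Fcgbp (0.67 ± 0.11, adjusted p = 0.00435). Another 2 fell, the trefoil peptide gene Tff3 (-0.31 ± 0.07, adjusted p = 0.0214) and Zg16 (-0.51 ± 0.14, adjusted p = 0.034). The genotypes overlapped for Zg16, and neither fall was called without a filter on low values. Muc2 and Spdef did not pass, and the median of the goblet cell list was 0.52. Of 12 crypt stem and cycling cell markers 3 rose, the DNA replication genes Mcm3 (0.70 ± 0.15, adjusted p = 0.0148) and Pcna (0.29 ± 0.09, adjusted p = 0.048) and the MYC target Cdca7 (0.46 ± 0.08, adjusted p = 0.00688), and Rgmb fell (-0.53 ± 0.11, adjusted p = 0.0105). The median of the crypt list was 0.15. The calls of Pcna and Tff3 were lost in 11 and 4 of 15 alternative fits. Neither of 2 tested B and plasma cell markers passed, and the 8 enteric neuron and glia markers were too low to test.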
